A study of Mus musculus with 8 samples.

Results

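Genes of oxidative phosphorylation were examined in the transcriptome of mouse lens fiber cells (FC). They were the protein-coding rows of the deposited expression table whose symbols begin with Nduf followed by a, b, c, s or v, with Uqcr, Cox4 to Cox8 or Atp5, the 4 genes Sdha to Sdhd, and the mitochondrial genes mt-Nd, mt-Co, mt-Atp and mt-Cytb. This gave 105 genes of 35275 rows, of which 22026 rows are protein coding. By complex, 51 belong to complex I, 4 to complex II, 9 to complex III, 23 to complex IV and 18 to complex V, and 13 of the 105 are encoded by the mitochondrial genome. Symbols of this form also take in 10 assembly factors, among them the 7 Ndufaf genes, and 8 isoforms of complex IV subunits that are known from other tissues, and these are described apart from the subunits.

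The lens FC came from C57BL/6 mice (C57BL/6J in the methods of the study) of 2 groups, and each of the 4 libraries of a group was made from the pooled right eyes of 4 mice. Cigarette smoke (CS)-exposed mice had been in a whole-body smoke chamber for 5 hours/day and 5 days/week over 3.5 months, from shortly before birth, while untreated control (Ct) mice of the same age stayed in the animal facility. FC were parted from the lens epithelium with forceps. Male and female mice went into separate pools, 2 of each sex in a group by the methods of the study. The labels do not say which pools these are, and sex was not entered in the fits. Pools, not single mice, are thus the replicates, and the chamber itself, with its confinement, cannot be told apart from the smoke in it.

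Oxidative phosphorylation is the making of ATP by the inner mitochondrial membrane. Complexes I and II pass electrons from NADH and succinate to ubiquinone, complex III passes them on to cytochrome c, complex IV to oxygen, and complex V, the ATP synthase, uses the resulting proton gradient. Complex II is made of nuclear-encoded proteins alone, while each of the other 4 complexes mixes nuclear and mitochondrial products. FC lose their mitochondria and other organelles as they mature toward the lens centre, so that respiration in the lens is a feature of the epithelium and of young fibers.

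Values are FPKM, fragments per kilobase of gene scaled to the mapped fragments of the library, so that levels are per length. From the steps of the FPKM values, 18093762 to 23251413 fragments per library were recovered, and the median value of a gene of this group in a library rested on 1068 fragments. All 10 fiber markers examined, among them Mip, Bfsp1 and Cryaa, were above 1 FPKM, and crystallins made up 65.1% of the summed FPKM. Markers of other eye cells were present at low levels, and those of rods and of the pigment epithelium moved with the groups. The summed level of 10 rod photoreceptor genes was 11.1 to 29.9 FPKM in untreated Ct libraries and 32.4 to 94.4 FPKM in CS-exposed ones, with all 10 genes higher on average in CS-exposed mice. For 7 genes of the pigment epithelium the sums were 1.43 to 2.44 and 3.62 to 27.0 FPKM, with Best1 at 0 throughout. CS-exposed library 3 had the highest sum of both lists. The 8 lens epithelium genes summed to 68.8, 79.7, 126 and 62.9 FPKM in untreated Ct libraries 1 to 4 and to 50.7 to 82.9 FPKM in CS-exposed ones, with 1 of the 8 higher on average in CS-exposed mice. Untreated Ct library 3 thus stood above all others, and the other 3 lay within the CS-exposed range. The 5 blood genes summed to at most 1.73 and at most 22.8 FPKM, and the groups overlapped. Rods are rich in mitochondria. Their part, and that of the epithelium, in the values below was not tested, and in pooled tissue fewer cells of a type and less RNA per cell cannot be told apart.

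Lens FC expressed all 5 complexes, in an order that was the same in all 8 libraries. The median nuclear-encoded subunit of complex IV, the cytochrome c oxidase, was at 131 FPKM, that of complex V at 88.8, of complex III at 41.8, of complex I at 33.2 and of complex II at 24.5 FPKM. The median tested protein-coding gene was at 4.89 FPKM. Across libraries the median subunit ran from 116 to 142 FPKM in complex IV, from 87.0 to 95.8 in complex V, from 39.9 to 45.4 in complex III, from 31.8 to 36.0 in complex I and from 22.2 to 27.7 in complex II, and these ranges did not overlap. Levels within a complex spread far more than levels between libraries. Among the 36 nuclear subunits of complex I, the middle of the distribution ran from 23.6 to 77.4 FPKM between quartiles. All 105 genes together held 1.26% to 1.36% of the summed FPKM, and 3.64% to 3.77% once crystallins were left out.

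**Figure D1:**
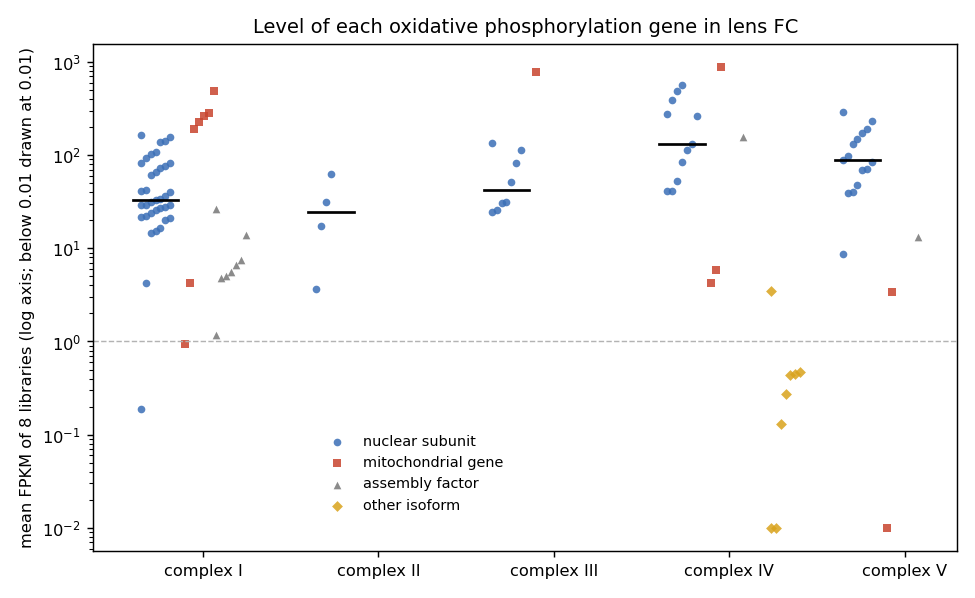
Mean FPKM over 8 libraries of each gene, on a log axis, by complex and kind of gene. Black lines are the medians of the nuclear subunits (131 FPKM in complex IV and 24.5 FPKM in complex II), the dashed line marks 1 FPKM, and values under 0.01, which are all 0, are drawn at 0.01. Most subunits lie above 10 FPKM, the assembly factors of complex I below most subunits, and all but 1 of the other isoforms below 1 FPKM.

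In complex I, the NADH dehydrogenase, nuclear core subunits carry the flavin and the iron-sulfur clusters. Ndufs7 was highest of those described here at 40.2 FPKM, Ndufv1, Ndufv2 and Ndufs8 were close to each other at 33.8, 32.6 and 29.4 FPKM, Ndufs3 was lower (16.8 to 24.5 FPKM across libraries), and Ndufs1, the largest of them, was at 4.28 FPKM. Ndufs1 was the lowest of these in every library (3.21 to 5.44 FPKM). The 2 highest nuclear genes of the complex were accessory subunits, Ndufa1 at 166 FPKM and Ndufa6 at 157 FPKM. The lowest was Ndufb2, listed at 0.127 to 0.305 FPKM from 11 to 31 fragments per library, while every other nuclear subunit of the complex reached at least 3.21 FPKM in each library. None of the 100-base windows of Ndufb2 transcripts recur in another annotated gene, and 7.94% of its exon bases overlap other genes. The cause of its low value was not tested. The 8 assembly factors of complex I had a median of 6.08 FPKM, from Ndufaf4 at 1.16 to Ndufaf2 at 26.6 FPKM. Of the exon bases of Ndufaf2, 65.6% overlap another gene, so that its level is uncertain.

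Complex II, the succinate dehydrogenase, was uneven. The iron-sulfur subunit gene Sdhb was at 63.4 FPKM, the flavoprotein gene Sdha at 31.7, and the membrane anchor genes Sdhd and Sdhc at 17.4 and 3.64 FPKM. Sdhb exceeded Sdhc by 13.9 to 20.5 times in single libraries. Complex III had its highest nuclear genes in Uqcrh (136 FPKM) and Uqcr10 (113 FPKM), small accessory subunits, and its lowest in Uqcrfs1 (24.4 FPKM), the Rieske iron-sulfur protein, and Uqcrc2 (25.8 FPKM), with Uqcrc1 at 30.3 FPKM. Among the nuclear genes of complex IV the regulatory subunit gene Cox4i1 led with 571 FPKM, followed by Cox7c at 482 and Cox8a at 395 FPKM, and Cox5b was at 131 FPKM. Of its nuclear subunits other than the tissue-specific forms, Cox5a was lowest at 41.6, next to Cox6c at 41.7 FPKM, a pair whose order changed between libraries. In complex V the catalytic beta subunit gene Atp5b was at 292 FPKM and was 3.26 to 3.79 times the alpha subunit gene Atp5a1 (84.6 FPKM), although the head of the enzyme holds alpha and beta in equal number. The gamma subunit gene Atp5c1 was at 99.0 FPKM. The next highest gene was Atp5h, at 235 FPKM, and the lowest nuclear subunits by mean were Atp5g1 and Atp5f1, at 8.69 and 38.9 FPKM. Atp5g3 was close to Atp5f1 at 39.9 FPKM, and the order of these 2 changed between libraries.

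Where a subunit has genes for tissue-specific forms, lens FC used the general form. Cox4i1 held 99.9% of the FPKM of its pair with Cox4i2, the lung and hypoxia form, which had 0 to 14 fragments per library. The heart and skeletal muscle forms Cox6a2, Cox7a1 and Cox8b had 0 to 7, 0 to 12 and 0 to 11 fragments, and the testis form Cox6b2 had 0 to 11. Cox6a1, Cox7a2, Cox8a and Cox6b1 held at least 98.4% of their sets in every library. Cox7b2 and Cox8c were listed at 0 in all 8 libraries, against at least 876 fragments of Cox7b and 3840 of Cox8a. Ndufa4l2, a form known for its induction in hypoxia, was the only such isoform above the filter, at 3.48 FPKM, and made up 0.564% to 2.38% of its pair with Ndufa4 (264 FPKM). Its levels were 3.46, 5.96, 1.61 and 1.44 FPKM in untreated Ct libraries 1 to 4 and 3.46, 6.09, 2.94 and 2.89 FPKM in CS-exposed libraries 1 to 4. Libraries 1 and 2 of each group were above libraries 3 and 4 of the same group, and the groups overlapped. Subunit c of the ATP synthase, which forms the rotating ring, is encoded by 3 genes with 1 mature protein. Atp5g2 held 74.7% to 80.3% of their FPKM, Atp5g3 15.4% to 21.2% and Atp5g1 at most 4.33%. The low share of Atp5g1 rests on its length, with 4715 bases behind its FPKM against 862 for Atp5g3. In fragments, Atp5g1 had 761 to 960 per library and Atp5g3 569 to 884. The principal transcript of Atp5g1 is also 4715 bases long, so that the length check below does not bear on this share. Of the 100-base windows of Atp5g2, 34.7% also occur in another annotated gene, the largest share among the nuclear genes, so that its level is uncertain.

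These levels depend on the gene length that was divided out. The length behind the deposited FPKM, found from the recovered fragments, was within 10% of the length of the principal coding transcript in GENCODE M21 for 74 of 101 genes, and over 3 times that length for 5. These 5 were Ndufb7 (7.12 times), Cox6c (6.04), Ndufa11 (4.88), Atp5e (4.03) and Ndufb8 (3.15). Per principal transcript, Atp5e, the epsilon subunit of the ATP synthase, would be at 604 in place of 150, Cox6c at 252 in place of 41.7, Ndufb7 at 151 in place of 21.2 and Ndufa11 at 74.8 in place of 15.3. Cox7c would be at 633 in place of 482 and so above Cox4i1, which stayed at 571, and Atp5e and Atp5h (322) would be above Atp5b (292), and Ndufb10 (162) and Ndufb7 would be above Ndufa6 (149). On that length the medians became 213 for complex IV, 119 for complex V, 42.7 for complex III, 42.1 for complex I and 24.9 for complex II. Complexes IV and V were still the highest and complex II the lowest in all 8 libraries. Complexes I and III no longer had a fixed order, with complex I higher in 4 libraries and complex III in 4. A length that is the same in all libraries does not enter a comparison between groups other than through the pseudocount.

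**Figure D2:**
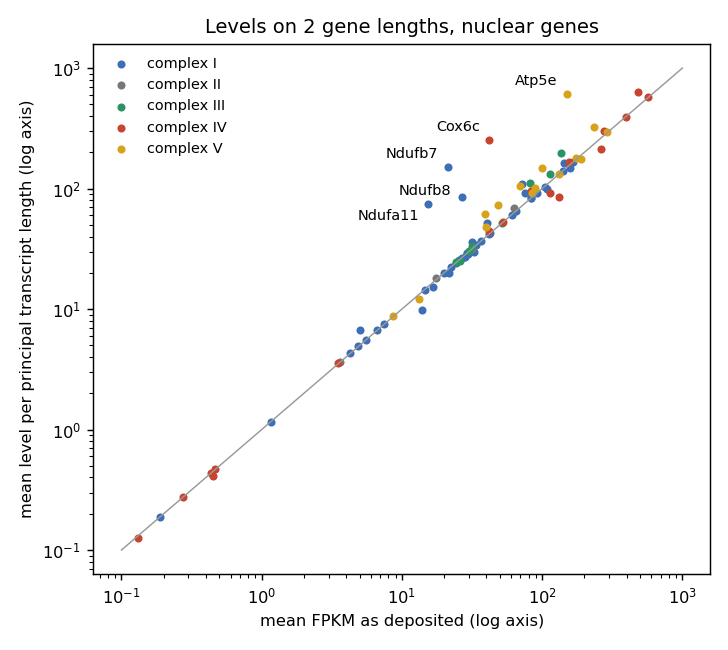
Mean level of each nuclear gene as deposited (x axis, FPKM) and per principal transcript length (y axis, scaled as FPKM), both on log axes, with equality as a line. Most genes lie on the line, and Ndufb7, Cox6c, Ndufa11, Atp5e and Ndufb8 lie 3.15 to 7.12 times above it.

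The mitochondrial genes fell into 2 sets that were apart in every library. Of the 13 genes, 7 were at 164 FPKM or more in each library. They were led by mt-Co1, the catalytic subunit of complex IV, at 882 FPKM and mt-Cytb of complex III at 781 FPKM, with mt-Nd1, mt-Nd2, mt-Nd4, mt-Nd5 and mt-Nd6 of complex I at 484, 284, 262, 225 and 189 FPKM. The other 6 genes stayed at 8.63 FPKM or less. Among these mt-Co2, mt-Nd3, mt-Co3 and mt-Atp6 were at 5.90, 4.26, 4.21 and 3.42 FPKM, mt-Nd4l was at 0.949 FPKM, and mt-Atp8 was listed at 0 in all libraries. The genes mt-Co1 and mt-Co2 encode subunits of the same enzyme, and mt-Co1 was 107 to 191 times higher. The median of the 7 high genes was 4.62 to 5.87 times that of all nuclear subunits.

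For 5 of the 6 genes of the low set, nearly the whole sequence also lies in the nuclear genome. On chromosome 1 of GRCm38, a run of annotated pseudogenes on the minus strand between 24611535 and 24616197 matches a stretch of mitochondrial DNA. The pseudogene Gm28661 matches mt-Co2 at 681 of 681 bases compared, Gm28437 matches mt-Co3 at 783 of 783, Gm10925 matches mt-Atp6 at 678 of 678, Gm10222 matches mt-Nd4l at 294 of 294 and Gm28438 matches mt-Nd3 at 344 of 345. Of the 100-base windows of these 5 genes, 97.6% to 99.9% occur in a second annotated gene. The share was 60.8% for mt-Nd4 and 30.8% for mt-Co1, which are matched over a part of their length, 3.19% for mt-Nd2, and 0% for mt-Nd1, mt-Nd5, mt-Nd6 and mt-Cytb. A read that fits 2 places equally well is often left uncounted, and how the authors treated such reads is not given in the sources used here. The values of the 5 genes, and in part those of mt-Nd4 and mt-Co1, are therefore uncertain and were not read as levels of their transcripts. mt-Atp8 has no window in another annotated gene. The interval between Gm10925 and Gm28661, where its copy would lie, holds no annotated transcript and was not examined, and 21.1% of its bases overlap mt-Atp6.

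**Figure D3:**
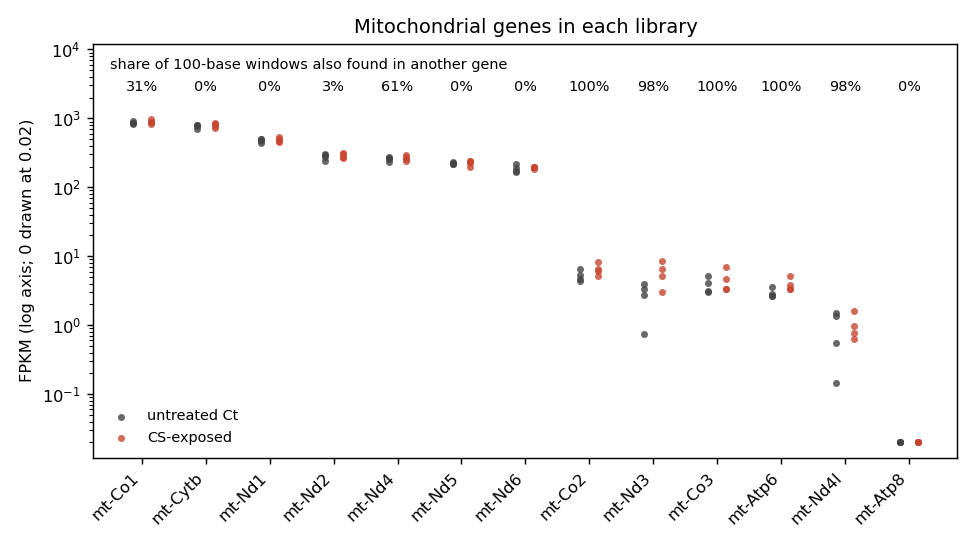
FPKM of the 13 mitochondrial genes in the 4 untreated Ct and the 4 CS-exposed libraries, on a log axis with 0 drawn at 0.02, in order of mean level. The numbers above are the share of each gene's 100-base windows that also occur in another annotated gene. The 7 high genes have shares of 0% to 61% and values of 164 FPKM or more. The 5 genes with shares of 97.6% or more, as well as mt-Atp8 with 0%, are at 8.63 FPKM or less.

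The closeness of these copies can be seen in the sequences, which were read from the GENCODE M21 transcripts and are shown 5′ to 3′ on the strand of the gene. Lower case marks bases that are identical in the mitochondrial gene and its copy, and capitals mark bases that differ. The start of mt-Co2 (chrM:7013-7082) and of its copy (chr1:24615496-24615565, minus strand) show a pair with no difference, that of mt-Nd3 (chrM:9459-9500) and its copy (chr1:24613078-24613119, minus strand) the sole difference over the length compared, and an inner stretch of mt-Co1 (chrM:6381-6460, bases 1054 to 1133 of the gene) and the start of its copy (chr1:24616118-24616197, minus strand) all 6 differences, at the edge of the matched part.
mt-Co2: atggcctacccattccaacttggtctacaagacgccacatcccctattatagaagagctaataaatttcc
Gm28661: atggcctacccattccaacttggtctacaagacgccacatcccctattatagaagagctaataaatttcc
mt-Nd3: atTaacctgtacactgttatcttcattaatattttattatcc
Gm28438: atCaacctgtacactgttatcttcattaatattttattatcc
mt-Co1: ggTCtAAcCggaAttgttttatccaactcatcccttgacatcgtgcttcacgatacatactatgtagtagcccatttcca
Gm29216: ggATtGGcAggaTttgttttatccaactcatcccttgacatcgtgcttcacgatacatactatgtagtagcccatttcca
In mt-Nd3 the difference is T3C, counted from 1 at the first base of the mitochondrial gene, so that within the length compared only reads that cover this base differ.

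Oxidative phosphorylation genes of CS-exposed mice were then compared with those of untreated Ct mice, to see whether respiration-related transcripts differ after smoke exposure. Genes averaging 1 FPKM or more in at least 1 of the groups were tested with limma on log2(FPKM + 0.1), which took in 9794 genes in all and 96 of the 105. No gene of the 96 passed the Benjamini-Hochberg adjusted limma p value of 0.05, and the smallest was 0.956. Over all genes tested, 1 gene or 0.0102% passed. At an unadjusted p value under 0.05 there were 9 of the 96 (9.38%), 4 lower and 5 higher in CS-exposed mice, against 4.83% of all genes tested (2.08% lower and 2.75% higher). The count was 5 without CS-exposed library 4, 5 without a variance trend in the fit and 4 with limma-voom on recovered reads. The split was 5 lower and 4 higher with median centring, and 7 lower and 4 higher with quantile normalization. It was 2 lower and 4 higher without untreated Ct library 1, and 5 lower and 7 higher without untreated Ct library 2. Without untreated Ct library 3 or 4 it was 4 or 3 lower and 3 higher. It was 3 lower and 2 higher without CS-exposed library 4, and 1 lower and 3 higher with limma-voom. Without the 5 mitochondrial genes with near-identical copies, 7 of 91 remained (7.69%). The values of the groups did not overlap for 3 of the 96 (3.12%), against 3.08% of all genes tested, with 2 lower (1.29% of all genes) and 1 higher (1.80% of all genes). The counts of the 96 were thus close to the background for values that do not overlap, and their median log2 fold change was 0.028, against 0.0043 over all genes. In absolute size 84 of the 96 log2 fold changes were under 0.2, and only that of mt-Nd3 reached 0.5. The median SD between libraries of a group was 6.92% of a gene's mean.

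**Figure D4:**
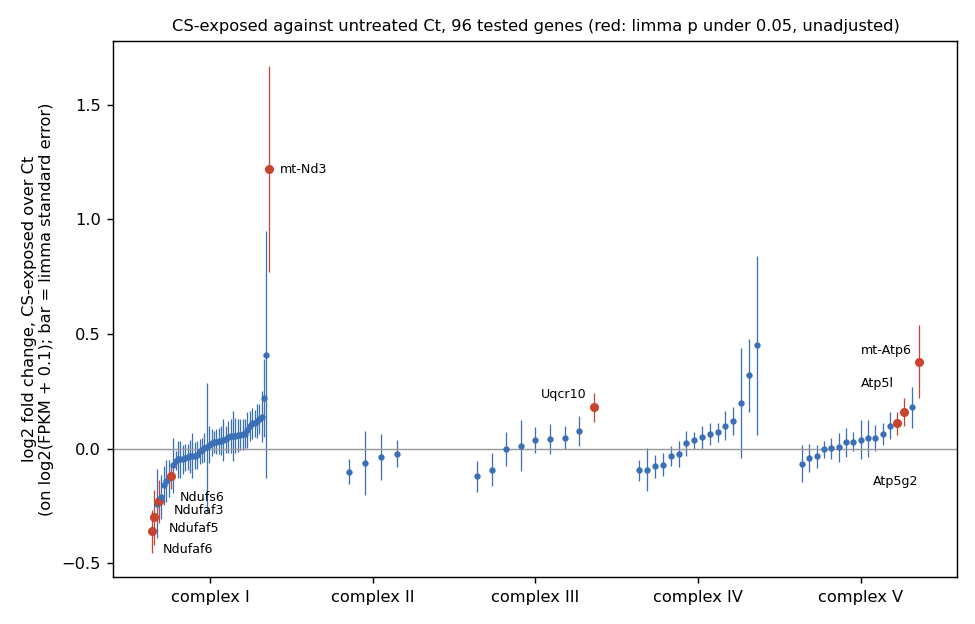
Log2 fold change of CS-exposed over untreated Ct mice, on the log2(FPKM + 0.1) scale, of the 96 tested genes by complex and ordered by size, with the limma standard error as bars. The 9 red points have an unadjusted limma p value under 0.05. Of the points, 84 are under 0.2 in absolute size, and mt-Nd3 is the highest at 1.22.

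By complex, the median log2 fold change was 0.022 in complex I (50 genes tested), -0.050 in complex II (4), 0.038 in complex III (9), 0.043 in complex IV (16) and 0.039 in complex V (17). For nuclear subunits alone these medians were 0.0049, -0.050, 0.028, -0.024 and 0.030 in complexes I to V, and that of complex IV thus lay below 0 without its mitochondrial genes, Ndufa4l2 and Cox7a2l. The median of all complex I genes was -0.0071 without untreated Ct library 3, -0.00060 without untreated Ct library 4, -0.0069 without CS-exposed library 3 and -0.0079 with quantile normalization. It was 0.0090 without untreated Ct library 1, 0.0076 without CS-exposed library 4 and 0.034 without CS-exposed library 1. The median of complex III was 0.0055 without CS-exposed library 3, 0.013 without CS-exposed library 4 and 0.071 without CS-exposed library 1. That of complex IV was 0.025 without CS-exposed library 3, and that of complex V was 0.020 without untreated Ct library 3 or without CS-exposed library 4. With quantile normalization the medians of complexes III, IV and V were 0.020, 0.017 and 0.011. All 4 genes of complex II had a log2 fold change below 0, from -0.10 for Sdhb (standard error 0.053, limma adjusted p = 0.956) to -0.021 for Sdha, but without untreated Ct library 3 the median was 0.034. This library had the highest sum of lens epithelium markers (126 FPKM) and the highest values of Sdha (34.3 FPKM), Sdhc (4.73 FPKM) and Sdhd (21.1 FPKM), and the part of the epithelium in the complex II values was not tested. The median of complex II was -0.12 without untreated Ct library 2, -0.091 without CS-exposed library 2 and -0.032 without CS-exposed library 1. Their libraries overlapped, with Sdhb at 71.5, 62.4, 65.8 and 63.2 FPKM in untreated Ct mice and 59.9, 59.9, 61.5 and 63.1 FPKM in CS-exposed mice. Sdhb values of CS-exposed mice were all below the third highest of untreated Ct mice. None of the 17 nuclear core subunits of complexes I, II, III and V had an unadjusted p value under 0.05, against 4.83% of all genes tested. Their median log2 fold change was -0.0020. Ndufs3 was the closest of these to the threshold besides Sdhb, at 24.5, 20.2, 20.4 and 19.4 FPKM in untreated Ct mice and 16.8, 19.6, 19.5 and 19.4 FPKM in CS-exposed mice (log2 fold change -0.16, standard error 0.085, limma adjusted p = 0.956). In complex IV none of the 16 genes tested had an unadjusted p value under 0.05, and both sets are small for a share of 4.83%. The steadiest gene was Atp5b, with an SD of 2.51% of its mean and a group mean of 292 FPKM in each group (log2 fold change -0.0020, standard error 0.037).

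Of the 8 assembly factors of complex I, 7 of which are Ndufaf genes, 3 had an unadjusted limma p value under 0.05, all 3 lower in CS-exposed mice, against 2.08% of all genes tested. These proteins help build complex I and are not part of the finished enzyme. Ndufaf6 (chromosome 4 of GRCm38, 11051045 to 11076205), a factor known to be needed for the mitochondrially encoded ND1 subunit, was at 9.25, 7.63, 9.14 and 7.82 FPKM in untreated Ct libraries 1 to 4 and at 6.00, 6.84, 6.44 and 6.88 FPKM in CS-exposed libraries 1 to 4. All CS-exposed libraries were below all untreated Ct libraries, which is the smallest exact p that 4 against 4 libraries can give (two-sided exact permutation test, p = 0.0286). Its log2 fold change was -0.36 (standard error 0.093, limma adjusted p = 0.956). In each of the 18 alternative fits its unadjusted p was under 0.05, between 0.00145 and 0.0244, and its adjusted p was at least 0.610.

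Ndufaf5 (chromosome 2, 140170649 to 140203689), a hydroxylase of a core subunit, was at 4.82, 5.36, 4.98 and 6.17 FPKM in untreated Ct mice and at 3.63, 5.05, 4.18 and 4.43 FPKM in CS-exposed mice. The groups overlapped through CS-exposed library 2 (log2 fold change -0.30, standard error 0.12, limma adjusted p = 0.956). Ndufaf3 (chromosome 9, 108565537 to 108567434) was at 15.5, 13.1, 15.2 and 15.9 FPKM in untreated Ct mice and at 10.8, 12.6, 14.3 and 13.2 FPKM in CS-exposed mice. Here untreated Ct library 2 lay within the CS-exposed range (log2 fold change -0.23, standard error 0.095, limma adjusted p = 0.956). Ndufaf7 (log2 fold change -0.21) had an unadjusted limma p of 0.0506. The other 3 Ndufaf genes were at or above 0, with 0.22 for Ndufaf1, 0.14 for Ndufaf2 and 0.0052 for Ndufaf4, so that the 7 did not share a direction. The unadjusted p of Ndufaf5 was under 0.05 in 13 of 18 alternative fits and that of Ndufaf3 in 11. Both lost it together in 3 fits, which left Ndufaf6 as the only 1 of the 3 genes under 0.05. The unadjusted limma p values of Ndufaf5 and Ndufaf3 were 0.0908 and 0.104 without CS-exposed library 1, 0.0909 and 0.0826 without untreated Ct library 4, and 0.130 and 0.0704 with limma-voom on recovered reads. Ndufs6 (chromosome 13, 73319838 to 73328542), an accessory subunit near the electron-input end, was the fourth lower gene, at 95.3, 83.6, 83.2 and 83.9 FPKM in untreated Ct mice and at 79.3, 76.5, 81.6 and 80.5 FPKM in CS-exposed mice. Its groups did not overlap, and untreated Ct library 1 stood above all others (log2 fold change -0.12, standard error 0.054, limma adjusted p = 0.956). Without that library the log2 fold change was -0.073. Its unadjusted p was under 0.05 in 10 of 18 alternative fits, and not without untreated Ct library 1 or CS-exposed library 1, 2 or 4, nor with median centring, no variance trend, the replicate block or limma-voom on recovered reads.

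**Figure D5:**
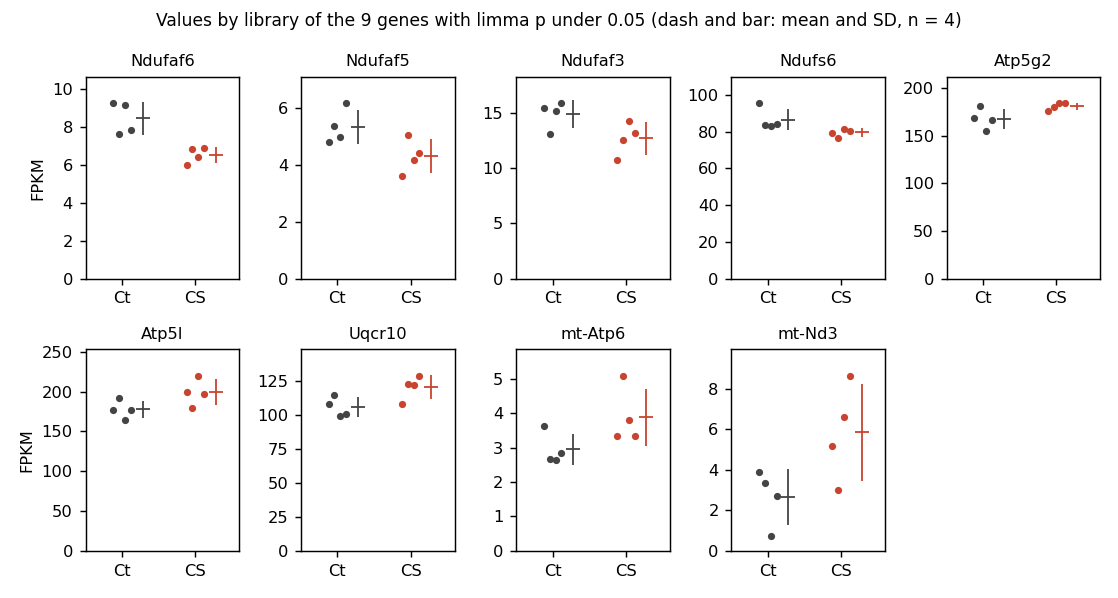
FPKM by library of the 9 genes with an unadjusted limma p value under 0.05, on axes that start at 0, for untreated Ct (grey) and CS-exposed (red) mice. The dash and bar are the mean and SD of 4 libraries. The groups are apart for Ndufaf6 and Ndufs6 and overlap for the other 7.

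Among the 5 higher genes, 3 were small nuclear-encoded subunits. Uqcr10 (chromosome 11, 4701973 to 4704342), of complex III, was at 108, 115, 99.6 and 101 FPKM in untreated Ct mice and at 108, 123, 122 and 129 FPKM in CS-exposed mice. CS-exposed library 1 lay within the untreated Ct range and the other 3 above it (log2 fold change 0.18, standard error 0.064, limma adjusted p = 0.956, two-sided exact permutation p = 0.0857). Atp5l (chromosome 9, 44912557 to 44920742), subunit g of the ATP synthase, was at 177, 192, 165 and 177 FPKM in untreated Ct mice and at 200, 180, 220 and 197 FPKM in CS-exposed mice (log2 fold change 0.16, standard error 0.063, limma adjusted p = 0.956, two-sided exact permutation p = 0.0571). CS-exposed library 2 lay below the highest untreated Ct library. Of the windows of Atp5l, 4.18% occur elsewhere. Atp5g2 (chromosome 15, 102662864 to 102672352) was at 169, 181, 155 and 167 FPKM in untreated Ct mice and at 176, 180, 184 and 184 FPKM in CS-exposed mice (log2 fold change 0.11, standard error 0.049, limma adjusted p = 0.956), with the groups overlapping. The log2 fold change was 0.069 without untreated Ct library 3 and 0.072 with quantile normalization. The unadjusted p of Atp5g2 stayed under 0.05 in 5 of 18 alternative fits, against 16 of 18 for Uqcr10 and 15 of 18 for Atp5l. Ndufa11, of complex I, had groups that did not overlap, at 13.8 to 15.3 FPKM in untreated Ct mice and 15.5 to 17.0 FPKM in CS-exposed mice, with an unadjusted limma p of 0.0668.

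The other 2 higher genes, mt-Nd3 and mt-Atp6, are in the low set of mitochondrial genes with near-identical copies. The values of mt-Nd3 were 3.90, 3.35, 0.742 and 2.70 FPKM in untreated Ct mice and 5.17, 2.99, 6.58 and 8.63 FPKM in CS-exposed mice, from 6 to 65 fragments per library. CS-exposed library 2 lay within the untreated Ct range, and untreated Ct library 3 was the lowest of all. The log2 fold change was 1.22 (standard error 0.45, limma adjusted p = 0.956, two-sided exact permutation p = 0.0857). It was 0.72 without untreated Ct library 3, and without CS-exposed library 4 the unadjusted limma p value was 0.0597. The values of mt-Atp6 were 3.62, 2.68, 2.65 and 2.84 FPKM in untreated Ct mice and 3.34, 5.09, 3.79 and 3.33 FPKM in CS-exposed mice, from 35 to 80 fragments, and the groups overlapped (log2 fold change 0.38, standard error 0.16, limma adjusted p = 0.956). Without CS-exposed library 2 the log2 fold change was 0.24 and the unadjusted limma p value was 0.109. With limma-voom on recovered reads the unadjusted p of mt-Atp6 was 0.180. It was under 0.05 in 11 of 17 alternative fits, and that of mt-Nd3 in 16 of 18. The 5 tested genes of the low set had log2 fold changes of 0.20 to 1.22. The 7 high mitochondrial genes, which rest on at least 1539 fragments each in every library, had log2 fold changes between 0.025 and 0.059, and none had an unadjusted p value under 0.05. With quantile normalization 3 of these 7 genes were slightly below 0, the lowest at -0.027. As an example, mt-Co1 was at 830, 920, 847 and 866 FPKM in untreated Ct mice and at 831, 895, 981 and 881 FPKM in CS-exposed mice. The ratio of the median high mitochondrial gene to the median nuclear subunit was 5.44 ± 0.583 (SD, n = 4) in untreated Ct mice and 5.38 ± 0.429 (SD, n = 4) in CS-exposed mice, a difference smaller than the spread between libraries.

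Genes around the respiratory chain were looked at in 10 further lists, of which 81 genes were tested. None passed the adjusted p value, and 2 (2.47%) had an unadjusted p under 0.05, both lower, against 4.83% of all genes tested in either direction and 2.08% lower. Values did not overlap between groups for 4 of the 81 (4.94%, against 3.08% of all genes), with Cox20, Fh1 and Sco1 lower and Tomm20 higher in CS-exposed mice. Cox20, an assembly factor for subunit COX2 of complex IV, was at 18.4, 16.3, 14.2 and 17.5 FPKM in untreated Ct mice and at 12.8, 12.9, 13.8 and 13.4 FPKM in CS-exposed mice, with no overlap (log2 fold change -0.32, standard error 0.084, limma adjusted p = 0.956). Fh1, fumarase of the citric acid cycle, was at 7.80, 8.47, 7.77 and 9.29 FPKM in untreated Ct mice and at 7.48, 5.95, 5.45 and 6.45 FPKM in CS-exposed mice, also with no overlap (log2 fold change -0.40, standard error 0.11, limma adjusted p = 0.956). Sco1, a copper chaperone of complex IV, was at 1.03, 1.27, 1.01 and 1.07 FPKM in untreated Ct mice and at 0.755, 0.920, 0.684 and 0.894 FPKM in CS-exposed mice (log2 fold change -0.39, standard error 0.22, limma adjusted p = 0.956). Tomm20, an import receptor of the outer membrane, was at 32.5, 31.8, 31.1 and 31.7 FPKM in untreated Ct mice and at 34.0, 32.8, 32.8 and 34.4 FPKM in CS-exposed mice (log2 fold change 0.077, standard error 0.049, limma adjusted p = 0.956). Across the 32 tested genes of the assembly factor lists, Cox20 was the only 1 under the threshold, 18 were below 0 and 14 above. These lists take in Atpif1, the gene of the ATP synthase inhibitor. Of 15 tested regulators of mitochondrial biogenesis and transcription, 7 tested electron carriers, 7 outer membrane genes and 7 mitophagy genes, none had an unadjusted p under 0.05. Ppargc1a, the coactivator best known for driving mitochondrial biogenesis, was at 0.0452 to 0.214 FPKM and was not tested, while its partners Nrf1, Gabpa and Esrra were at 2.61, 5.77 and 5.23 FPKM.

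Promoters of nuclear respiratory genes are known for sites of NRF1, of ETS factors such as GABPA, and of YY1. RefSeq promoters (GRCm38.p6, 250 bases before to 50 after the start) were found for 76 of the 92 nuclear genes, 3 of them by a synonym. The NRF1 motif GCGCANGCG stood in 22 of the 76 (28.9%), against 17.5% of 7011 other tested protein-coding genes and 7.03% of all genes with a promoter. It stood in 7 of 15 promoters of complex V (46.7%), 10 of 39 of complex I (25.6%), 2 of 3 of complex II, 2 of 5 of complex III and 1 of 14 of complex IV (7.14%). The YY1 motif AAGATGGCG stood in 8 (10.5%, against 4.28% of the other tested genes and 1.64% of all), and the ERR motif TCAAGGTCA in 2 (2.63%, against 0.271% and 0.466%). The ETS motif CCGGAAG was found in 17 (22.4%), about as often as in the other tested genes (22.5%), with 9.93% of all. The SP1 motif GGGCGG stood in 34 (44.7%), below the 72.1% of the other tested genes and above the 38.2% of all, and CCAAT was in 34 (44.7%, against 43.5% and 41.1%). Motifs were searched on both strands, may overlap, and are letters in a window and not sites of binding. The differences between these shares were not tested. Base composition bears on such shares, and the median GC content was 58.3% in these promoters and 61.5% in those of the other tested genes.

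Promoter stretches are shown for Cox6a1 (chr5:115348959-115349130) and Atp5h (chr11:115419941-115420070), the most highly expressed genes of the 5 with at least 2 of the NRF1, ETS, YY1 and ERR motifs before the start, and for Atp5l (chr9:44920938-44920992), which is also among the 9 genes above. All 3 lie on the minus strand, are printed 5′ to 3′ in the direction of transcription, and have NRF1 and ETS motifs in capitals.
Cox6a1: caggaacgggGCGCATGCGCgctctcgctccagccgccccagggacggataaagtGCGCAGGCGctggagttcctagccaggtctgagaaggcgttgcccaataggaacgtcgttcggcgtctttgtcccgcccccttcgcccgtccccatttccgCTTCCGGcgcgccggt
Atp5h: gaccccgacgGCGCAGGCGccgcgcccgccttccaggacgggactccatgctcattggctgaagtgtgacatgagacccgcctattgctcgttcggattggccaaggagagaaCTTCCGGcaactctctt
Atp5l: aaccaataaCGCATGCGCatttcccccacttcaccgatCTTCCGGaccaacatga
In each the NRF1 letters lie upstream of the ETS letters, and the ETS letters are on the reverse strand. The 3 genes had log2 fold changes of -0.095 for Cox6a1, 0.030 for Atp5h and 0.16 for Atp5l, none of which passed the adjusted limma p value.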

How the data were processed

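The authors sequenced paired reads of pooled lens FC, aligned them to GRCm38 (mm10) with STAR 2.5 and counted them with HTSeq 0.6.1, per the labels' processing notes, and deposited FPKM for each library. The treatment of reads with several positions and the annotation release are not given in the sources used here. The deposited columns of group means, fold changes and p-values were not used. Fragments were recovered from the FPKM steps, with whole numbers within 0.05 for all 105 genes. Fits used lmFit and eBayes with a variance trend (limma 3.58.1, R 4.3.3, two-sided) on log2(FPKM + 0.1), with Benjamini-Hochberg adjustment over the 9794 genes that averaged 1 FPKM or more in a group. Fold changes on this scale understate those of low genes. The fit was also run on simulated data with added changes larger than nearly all of those found here. That run does not bear on changes of the size reported. Single genes also had a two-sided exact permutation test over 70 assignments of libraries. Gene models and transcripts came from GENCODE M21, where 104 of the 105 symbols had 1 model (Atp5o had more). Python 3.11.15, numpy 2.4.6, pandas 2.3.3 and matplotlib 3.10.9 were used. The genes, lists and motifs were chosen with earlier results of these data known. Genes given in full were those with an unadjusted p under 0.05, mitochondrial genes, paralogs, core subunits, and the highest and lowest of each complex, and 1 gene is not reported here. Sdhb, Ndufs3, Ndufa11, Ndufa4l2, Sco1 and Tomm20 were given library by library or by range after their values had been seen. Alternatives were other pseudocounts (1 and 0.01), no minimum or 5 FPKM, median centring, quantile normalization, no trend, a robust fit, a replicate block and leaving out each library. Limma-voom on recovered reads, the principal transcript length and the count without copied mitochondrial genes were added after seeing the data. Whether the replicate numbers pair the libraries is not given in the sources used here, and they were not taken as pairs.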

Additional observations from a re-analysis of the deposited data

Results flagged for a closer look

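In 5 of the 95 groups of 4 libraries examined for named genes (group mean 1 FPKM or more), 1 library stood apart from the other 3 by Dixon's criterion at the 95% level (gap to the nearest library over the range of the group), close to the 4.75 that chance gives. Untreated Ct library 3 was high for Atp5b (299 FPKM, the others 289 to 290) and low for Cox4i1 (515, the others 567 to 577). Untreated Ct library 1 was high for Cox5b (136, the others 130) and Ndufs6 (95.3, the others 83.2 to 83.9). CS-exposed library 1 was low for Ndufs3 (16.8, the others 19.4 to 19.6). The causes were not tested.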

How the results depend on the processing

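No gene of the group had an adjusted p value under 0.05 in any fit. The count at an unadjusted p under 0.05, 9 as reported, was 5 without a variance trend, 4 with limma-voom on recovered reads, and 5 (without CS-exposed library 4) to 12 (without untreated Ct library 2) when libraries were left out. It was 7 without mitochondrial genes that have copies. Quantile normalization turned the split from 4 lower and 5 higher to 7 lower and 4 higher. Over all genes, the count of 473 became 862 with no minimum FPKM and 226 with a minimum of 5 FPKM, by construction with more or fewer genes tested. The count of 1 at an adjusted p under 0.05 became 0 with no minimum FPKM (unadjusted count 862), 0 without a variance trend (498), and 2 with limma-voom. Without single libraries it was 0 (without untreated Ct library 4, unadjusted count 479) to 1. The cause was not tested. With the replicate block it was 5, none of them in the group, whose count stayed at 9 (3 lower, 6 higher). Same-numbered libraries correlated at a mean of 0.0904 and at most 0.161 in their deviations from the group means, and other pairs at -0.126 to 0.0552, but not all same-numbered pairs exceeded 0.1, so the numbers were not taken as pairs. The median log2 fold change of complex IV was -0.024 with no minimum FPKM. Median levels were 29.1 FPKM in complex I and 47.0 in complex IV with assembly factors and other isoforms included, and per principal transcript length 42.1, 213 and 119 in complexes I, IV and V. Genes under 20 fragments in some library (11 of 105) could not be compared with precision.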
